A study of Mus musculus with 9 samples.

Results

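Mouse hepatoma cells treated with FICZ were compared directly with cells treated with tryptamine, without passing through the control. The comparison holds 6 of the 9 RNA sequencing libraries of the series, namely 3 of the FICZ group and 3 of the tryptamine group. The members were taken from the deposited table of this pair by their labels, and each gene was represented by its transcript with the highest mean count over the 6 libraries. The FICZ group received 10 nM FICZ and the tryptamine group 50 uM tryptamine, so the doses were not matched, and both treatments lasted 6 h. The control group, whose labels read untreated in one field and vehicle in another, also has 3 libraries and is used below only to give levels. All groups are labelled as Hepa 1 WT cells of a mouse hepatoma, while the cell line label reads HC1C, and no allele or further agent is named for any of them. Whether a group's libraries came from separate cultures is not stated in the labels, so p-values measure only the spread between these libraries, which may be technical.

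The aryl hydrocarbon receptor (AhR) is a ligand-activated transcription factor that is held in the cytosol in a complex with HSP90 and co-chaperones. On binding a ligand it enters the nucleus, pairs with ARNT and binds short DNA elements with the core GCGTG near genes of foreign compound metabolism, of which Cyp1a1 is the best known in liver cells. FICZ, formed from tryptophan by light, is a high-affinity ligand of the receptor and is itself broken down by the CYP1A1 enzyme. Tryptamine is the amine left when tryptophan is decarboxylated, and monoamine oxidases turn it into an indole aldehyde. The series title calls tryptamine a proligand whose effect on the receptor needs these oxidases, and the direct comparison shows which transcripts differed in level between the ligand and the proligand at the doses used.

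The 6 libraries held 12616668 to 16245848 counts over genes, and the number of genes with at least 10 counts ran from 11674 to 11903. Log CPM values (counts scaled to a common library size, edgeR's CPM unit) correlated across genes at 0.988 to 0.992 within a group and also at 0.988 to 0.992 between the groups. The biological coefficient of variation that edgeR estimates, which is the relative spread between libraries beyond counting error, was 0.0756. The median log2 difference of FICZ over tryptamine was 0.000812 over the 11784 genes tested, and 50.4% of them lay above 0. By transcript length, the medians were -0.00135 for 1038 genes of up to 1000 nt and 0.0177 for 1280 genes over 6000 nt.

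Few transcripts differed between the treatments by more than the spread of the libraries allowed the test to call. Among them were Cyp1a1, Cyp2s1, Por, Xdh, Aldh3a1, Adh7, Sod3, Gsta4 and Cpox, enzymes of oxidation, conjugation and heme synthesis, all higher with FICZ. In edgeR's quasi-likelihood test with Benjamini-Hochberg adjustment over all genes, 16 genes were higher with FICZ (0.136% of those tested) and 1 gene, Angpt1, was lower (0.00849%), at an adjusted p under 0.05. In 14 of these 17 genes the difference was under 2-fold, and in 96.4% of all genes it lay within 0.5 on the log2 scale. All 3 FICZ libraries lay above all 3 tryptamine libraries, or below them for Angpt1, in each of the 17. Over all genes tested, the groups were separate in this way for 5.79% in the higher direction and 5.52% in the lower direction. Before adjustment 5.73% of genes had a p under 0.05, 346 of them with FICZ higher and 329 with FICZ lower. Xdh, Tbc1d16, Cyp1a1, Aldh3a1, Slc2a6 and Adh7 passed whichever of the 6 libraries was left out. Without FICZ replicate 1 these 6, Cpox and Gbp2 passed, and the adjusted p-values of the other 9 ran from 0.0692 to 0.223. Without tryptamine replicate 1 only the 6 genes named first passed, and the adjusted p-values of the other 11 ran from 0.0563 to 0.199. Without FICZ replicate 2, Angpt1, Gsta4, Mpp2, Ppl and Por were lost (0.0899 to 0.281), and without FICZ replicate 3, Gbp2 and Gsta4 (0.0609 and 0.0993). Leaving out tryptamine replicate 2 or 3 kept all 17 and gave totals of 23 and 26, while counts summed over the transcripts of a gene kept the same 6. With the 3 control libraries in the same edgeR fit, whose replicate 3 stands apart and raises that coefficient to 0.156, 0 genes passed (208 at an unadjusted p under 0.05), against 16 higher and 2 lower with control replicate 3 left out.

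**Figure D1:**
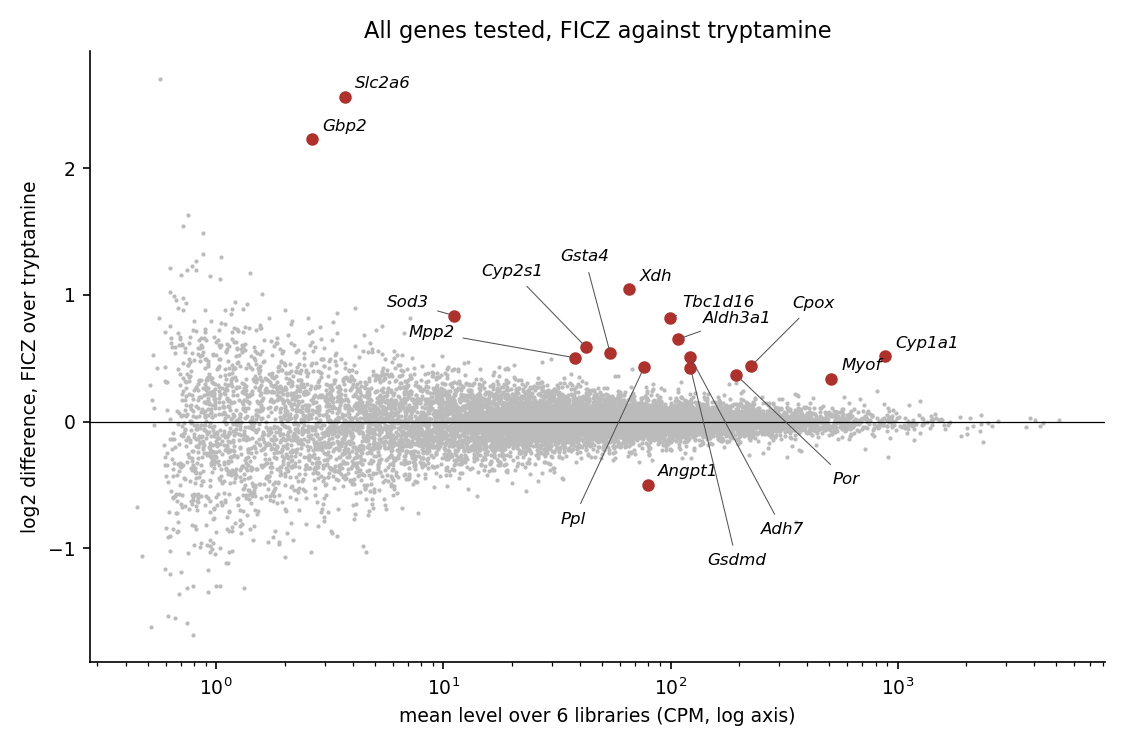
Log2 difference of FICZ over tryptamine (vertical axis) against the mean level over the 6 libraries in CPM (horizontal log axis), with 1 point for each of the 11784 genes tested. Red points are the 17 genes that passed, 16 above 0 and Angpt1 below, and the grey cloud of other genes widens towards low levels.

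Cyp1a1 (gene ID 13076), the P450 enzyme gene by which AhR activity is most often read, was high under both treatments and higher with FICZ. Its level was 1050.0, 1066 and 978 CPM in FICZ replicates 1, 2 and 3, and 693, 700 and 771 CPM in tryptamine replicates 1, 2 and 3. The lowest FICZ library thus lay above the highest tryptamine library, by a margin larger than the spread inside either group. The log2 difference was 0.52 ± 0.056 (SE), a 1.43-fold difference, with an adjusted p of 1.54e-05 in edgeR's quasi-likelihood test. Per kilobase of transcript, the level of Cyp1a1 was 394 CPM with FICZ and 275 CPM with tryptamine, beside 16.1 and 10.7 CPM for Cyp2s1 and 2.90 and 2.35 CPM for Cyp1b1.

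Of 17 AhR target genes listed, 11 passed the filter on low counts, and 4 of these were higher with FICZ: Cyp1a1, Xdh, Aldh3a1 and Cyp2s1. None was lower. The median log2 difference of the 11 was 0.42, with 10 above 0 and 8 with separate groups, all higher with FICZ. Over all genes tested, 0.136% were called higher and 5.79% had groups separate in that direction. The list was drawn up with earlier results of these data known. The member below 0 was Slc7a5, an amino acid transporter (log2 -0.11, adjusted p 0.942). Of the 6 members not tested, 4 had 0 counts in all 6 libraries, Fmo2 had 44 counts in all and Ugt1a6a had no gene ID of its own in the table. Cyp2s1 (gene ID 74134), a P450 of epithelia that AhR ligands are known to induce, stood at 53.6, 46.5 and 52.6 CPM with FICZ against 32.2, 38.4 and 31.0 CPM with tryptamine. The groups did not overlap, and the log2 difference was 0.59 ± 0.101 (SE, adjusted p 0.00611 in edgeR's test). Por, the reductase that passes electrons from NADPH to microsomal P450 enzymes, was not on the list and was also higher, by 0.37 ± 0.069 on the log2 scale (SE, adjusted p 0.0164), from 170.6 ± 12.2 CPM with tryptamine to 219.8 ± 14.3 CPM with FICZ (SD, n = 3).

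The other target genes of the list did not pass. Nqo1, a quinone reductase, had 78.6, 79.5 and 73.7 CPM with FICZ and 57.7, 48.8 and 66.7 CPM with tryptamine, a log2 difference of 0.42 ± 0.095 (SE, adjusted p 0.112). Tnfaip2, a TNF-induced gene, had 9.79, 9.62 and 7.94 CPM against 5.24, 4.05 and 6.14 CPM (log2 0.82 ± 0.194, SE, adjusted p 0.141). In both genes the groups were separate and the adjusted p missed the threshold, while DESeq2's Wald test called Nqo1 with an adjusted p of 0.0367. Tiparp, an ADP-ribosyltransferase that restrains the receptor, had a log2 difference of 0.27 with a 95% interval of 0.07 to 0.46 (adjusted p 0.616), and Cyp1b1, the related P450, had 0.29 with an interval of -0.03 to 0.62 (adjusted p 0.909). The repressor gene Ahrr was listed with 0 counts in all 6 libraries. Cyp1a2, a close relative of Cyp1a1 in sequence, was barely detected, with 32, 20 and 11 counts in the FICZ libraries and 17, 25 and 9 in the tryptamine libraries.

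Genes of the receptor machinery showed no difference that passed. All 15 tested genes of the AhR complex and its cofactors had adjusted p-values above the threshold, their median log2 difference was -0.03, and 0 had an unadjusted p under 0.05. Ahr itself had 20.5, 19.4 and 23.1 CPM with FICZ and 24.7, 22.2 and 25.5 CPM with tryptamine, so the groups overlapped. Its 95% interval ran from -0.44 to 0.04 on the log2 scale, and that of Arnt, its partner, from -0.13 to 0.24.

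The starts of 4 genes higher with FICZ are shown because the AhR core lies in them. Each sequence is the RefSeq promoter window on build GRCm38.p6, from 250 bases before to 50 bases after the transcript start, read along the gene's strand, with GCGTG or its reverse complement CACGC in capitals. The windows are chr9:57697363-57697662 (plus strand) for Cyp1a1, chr2:27027949-27028248 (minus strand) for Slc2a6, chr3:138217523-138217822 (plus strand) for Adh7 and chr16:58669958-58670257 (plus strand) for Cpox.
Cyp1a1: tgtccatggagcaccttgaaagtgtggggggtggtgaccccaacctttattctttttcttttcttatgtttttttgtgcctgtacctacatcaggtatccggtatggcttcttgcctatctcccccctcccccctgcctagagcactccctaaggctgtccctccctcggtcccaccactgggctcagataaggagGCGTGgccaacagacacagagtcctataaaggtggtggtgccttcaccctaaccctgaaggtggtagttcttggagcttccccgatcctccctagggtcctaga
Slc2a6: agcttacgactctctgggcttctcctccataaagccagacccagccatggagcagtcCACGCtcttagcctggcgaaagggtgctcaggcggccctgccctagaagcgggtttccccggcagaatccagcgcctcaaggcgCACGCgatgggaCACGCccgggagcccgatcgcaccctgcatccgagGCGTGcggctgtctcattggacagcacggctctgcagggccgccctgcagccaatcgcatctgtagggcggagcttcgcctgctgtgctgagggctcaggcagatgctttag
Adh7: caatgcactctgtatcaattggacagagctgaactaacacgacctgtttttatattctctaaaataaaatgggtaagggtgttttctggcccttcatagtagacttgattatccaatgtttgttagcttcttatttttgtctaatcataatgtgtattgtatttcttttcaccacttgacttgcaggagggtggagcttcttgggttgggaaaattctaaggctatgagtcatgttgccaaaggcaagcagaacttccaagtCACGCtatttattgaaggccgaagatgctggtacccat
Cpox: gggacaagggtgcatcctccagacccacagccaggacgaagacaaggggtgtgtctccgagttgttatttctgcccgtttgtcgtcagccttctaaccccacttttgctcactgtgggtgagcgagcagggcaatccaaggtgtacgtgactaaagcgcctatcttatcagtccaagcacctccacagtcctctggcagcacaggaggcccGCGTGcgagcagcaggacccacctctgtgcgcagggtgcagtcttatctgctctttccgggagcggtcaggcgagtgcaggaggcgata
Slc2a6 holds 4 matches in its window, and the other 3 genes hold 1 each. A window was found for 9 of the 16 genes higher with FICZ, and 6 of their 10 windows (60%) held the core on either strand. Besides the 4 shown, those of Por (3 matches) and Myof (1 match) held it. The windows of Cyp2s1, Gbp2 and Mpp2 held no match to the core. The same letters occur in 50.8% of the 11180 windows of genes tested and in 32.4% of all 32851 windows, so the share among the higher genes lies near that of genes tested. The longer form TNGCGTG was found in 2 of the 10 windows (20%), those of Slc2a6 and Adh7, against 8.06% of windows of genes tested. A match is a description of these letters in this window and no measurement of binding.

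Enzymes that handle aldehydes, alcohols, purines and superoxide made up the next group. Xdh (gene ID 22436), xanthine dehydrogenase, which forms uric acid at the end of purine breakdown, had the smallest p-value of all genes. It stood at 97.2, 84.5 and 84.7 CPM with FICZ and at 46.6, 41.1 and 41.5 CPM with tryptamine. Every FICZ library was thus at or above 84.5 CPM while no tryptamine library exceeded 46.6 CPM. The log2 difference was 1.04 ± 0.087 (SE), a 2.06-fold difference, with an adjusted p of 3.87e-07 in edgeR's test.

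Aldh3a1 (gene ID 11670), an aldehyde dehydrogenase of aromatic and lipid aldehydes, had 131.8, 137.0 and 126.2 CPM with FICZ and 80.5, 82.7 and 88.5 CPM with tryptamine. Adh7 (gene ID 11529), an alcohol dehydrogenase that also oxidises retinol, had 146.7, 142.3 and 142.2 CPM against 101.2, 97.3 and 104.2 CPM. The libraries of each group lay close together in both genes, with a wide gap between the groups. Their log2 differences were 0.65 ± 0.072 (SE, adjusted p 1.80e-05) and 0.51 ± 0.067 (SE, adjusted p 2.50e-04) in edgeR's test. The other 14 tested alcohol and aldehyde dehydrogenases did not pass, and the list's median was 0.03. Among them Aldh1a1, the retinal dehydrogenase, was at 568, 574 and 614 CPM with FICZ and at 620, 617 and 688 CPM with tryptamine (log2 -0.13, adjusted p 0.777). For comparison, 0.136% of all genes tested were called higher with FICZ.

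Sod3 (gene ID 20657), the secreted superoxide dismutase, had 15.7, 13.2 and 14.0 CPM with FICZ and 7.90, 7.93 and 8.12 CPM with tryptamine, a log2 difference of 0.84 ± 0.149 (SE, adjusted p 0.0102). Its intracellular relatives and the catalase and peroxiredoxin genes of the same list did not pass: only Sod3 and Xdh did, out of 16 tested. The share called higher over all genes tested was 0.136%. Gsta4 (gene ID 14860), a glutathione transferase for lipid aldehydes, stood at 61.2, 62.6 and 69.0 CPM with FICZ and at 48.1, 47.9 and 36.6 CPM with tryptamine (log2 0.54 ± 0.10, SE, adjusted p 0.0147). It has close relatives in the genome between which reads could be split, so its level is uncertain to that extent. Gsta4 was the single gene to pass of 19 tested NRF2 target genes, and the median of that list was -0.01. Slc7a11, the cystine transporter of the list, was at 16.4 ± 1.51 CPM with FICZ and 21.5 ± 3.43 CPM with tryptamine (SD, n = 3, adjusted p 0.61).

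In the heme pathway the 2 genes with the smallest p-values lay on opposite sides of 0. Cpox (gene ID 12892), the coproporphyrinogen oxidase late in heme synthesis, was higher with FICZ, at 277, 244 and 257 CPM against 185, 197 and 194 CPM, a log2 difference of 0.44 ± 0.064 (SE, adjusted p 0.00108). Alad, which forms the pyrrole building block early in the pathway, was at 298, 298 and 285 CPM with FICZ and at 350.0, 374 and 344 CPM with tryptamine. Its groups were separate, yet its log2 difference of -0.28 ± 0.058 (SE) had an adjusted p of 0.0602, while DESeq2's Wald test called it with 0.00117. Alas1, the rate-limiting enzyme in liver, had a log2 difference of 0.27 (adjusted p 0.858). Of 12 tested heme genes 1 passed, and their median was 0.00.

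Among the genes that passed, the largest difference was that of a transporter. Slc2a6 (gene ID 227659), a hexose transporter of the GLUT family, had 98, 107 and 75 counts in the FICZ libraries and 26, 5 and 14 counts in the tryptamine libraries. Scaled, these were 7.16, 6.56 and 5.27 CPM against 1.82, 0.397 and 0.924 CPM, so the gene was low in all libraries and its groups did not overlap. The log2 difference was 2.56 ± 0.337 (SE), a 5.91-fold difference, with an adjusted p of 2.50e-04 in edgeR's test. The log2 difference was 3.20 without tryptamine replicate 1, the highest of its group, and 2.21 without tryptamine replicate 2, the lowest. The other 5 tested hexose transporters did not pass. Slc2a3, a glucose transporter, was at 88.3 ± 3.15 CPM with FICZ and 103.2 ± 2.45 CPM with tryptamine (SD, n = 3, adjusted p 0.522).

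Tbc1d16 (gene ID 207592), a protein that switches off Rab GTPases of vesicle traffic, had 125.5, 137.5 and 118.4 CPM with FICZ and 76.5, 72.2 and 67.5 CPM with tryptamine. The log2 difference of 0.82 ± 0.078 (SE) had the adjusted p next in order after Xdh, 2.29e-06. Myof, which codes for the membrane repair protein myoferlin, was at 581, 559 and 574 CPM with FICZ and at 459, 426 and 468 CPM with tryptamine (log2 0.34, adjusted p 0.00459). Mpp2, a guanylate kinase-like scaffold protein, had a log2 difference of 0.50 and Ppl, the desmosome protein periplakin, one of 0.43, each with an adjusted p of 0.0147. Mean levels were 44.6 against 31.5 CPM for Mpp2 and 87.8 against 65.2 CPM for Ppl.

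Gbp2 and Gsdmd, genes of innate immunity, were higher with FICZ, while no other gene of their lists passed. Gbp2 (gene ID 14469), an interferon-inducible GTPase, had 46, 65 and 80 counts with FICZ and 9, 21 and 8 counts with tryptamine, or 3.36, 3.98 and 5.62 CPM against 0.629, 1.67 and 0.528 CPM. The groups did not overlap despite the low level, and the log2 difference was 2.23 ± 0.380 (SE, 4.69-fold, adjusted p 0.00611). It was 2.88 without tryptamine replicate 2, the highest of its group, and 1.94 without tryptamine replicate 3, the lowest. Without FICZ replicate 3 or tryptamine replicate 1 the adjusted p was 0.0609 or 0.107. Gbp genes form a family of near copies, so reads may have been split between them. Gbp3, a neighbour in that family, was at 1.17, 1.35 and 1.34 CPM against 0.699, 0.555 and 0.132 CPM and did not pass (log2 1.48, adjusted p 0.616). Of 19 tested interferon-inducible genes 1 passed, with a median of 0.04 and 10 above 0. Gsdmd (gene ID 69146), the pore-forming gasdermin D, was at 142, 138 and 141 CPM with FICZ and at 98.7, 102.4 and 112.0 CPM with tryptamine (log2 0.43 ± 0.070, SE, adjusted p 0.00459). No other of the 16 tested inflammatory and acute phase genes passed, and their median was 0.00. Stat3, the transcription factor of interleukin signalling, was at 199.8 ± 13.0 CPM against 162.8 ± 3.66 CPM (SD, n = 3, adjusted p 0.0883, and 0.00694 in DESeq2's Wald test). Tapbpl, a peptide editor of MHC class I loading, was at 34.8 ± 2.83 against 24.7 ± 1.47 CPM (SD, n = 3, adjusted p 0.0611, and 0.0220 in DESeq2's Wald test).

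Angpt1 (gene ID 11600), a secreted ligand of the endothelial receptor TIE2, was the gene that was lower with FICZ. Its level was 66.4, 62.8 and 68.1 CPM with FICZ and 93.0, 83.2 and 101.9 CPM with tryptamine. The groups were separate, with the wider spread among the tryptamine libraries. The log2 difference was -0.50 ± 0.083 (SE), a 1.41-fold lower level, with an adjusted p of 0.00566 in edgeR's test. The receptor gene Tek was listed with 0 counts in all 6 libraries. Of 16 tested growth factor and receptor genes, Angpt1 alone passed. Among the others, Nrg1, an ERBB ligand, was at 101.8 ± 1.47 CPM with FICZ and 85.8 ± 4.07 CPM with tryptamine (adjusted p 0.456), and Vegfc, a lymphatic growth factor, at 3.09 ± 0.653 and 4.92 ± 0.508 CPM (SD, n = 3, adjusted p 0.683). Angpt1 did not pass when FICZ replicate 1, FICZ replicate 2 or tryptamine replicate 1 was left out, with adjusted p-values of 0.0692, 0.0957 and 0.0659.

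**Figure D2:**
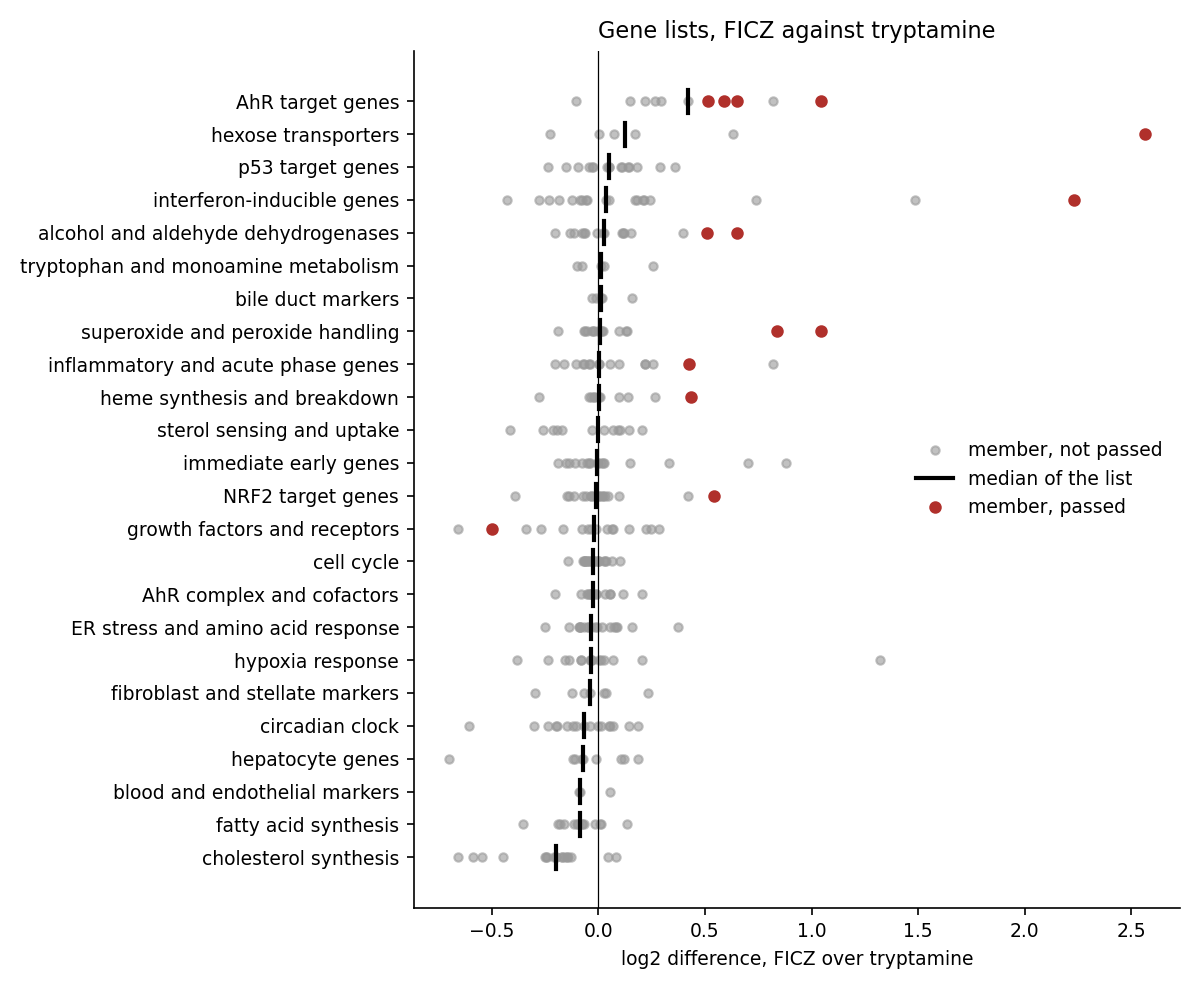
Log2 difference of FICZ over tryptamine (horizontal axis) for every tested member of 24 gene lists (vertical axis), ordered by the list's median, which a black bar marks. Red points are members that passed. AhR target genes have the highest median, 0.42, and cholesterol synthesis genes the lowest, -0.20. The lists and their members were chosen with earlier results of these data known, so their order is descriptive.

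Genes of cholesterol synthesis lay lower with FICZ than with tryptamine in a pattern of small differences. None of these passed in edgeR's main fit of the 6 libraries, and control levels of some are given below. Of 18 tested, 16 were below 0, 11 had all FICZ libraries below all tryptamine libraries, and 10 had an unadjusted p under 0.05. Over all 11784 genes, 651 (5.52%) had groups separate in this direction and 329 were lower at an unadjusted p under 0.05. The median log2 difference of the list was -0.20, beside 0.000812 over all genes. The summed level of the list was 904 to 931 CPM in the FICZ libraries and 1046 to 1073 CPM in the tryptamine libraries, with no overlap. DESeq2's Wald test called Dhcr7 and Sqle of this list, with adjusted p-values of 0.0405 and 0.0491. Among its alternative fits, edgeR called Dhcr7, Fdft1 and Mvd without a filter on low counts, and also Sqle with the replicate number as a block. Dhcr7 and Sqle passed without tryptamine replicate 3 too, and the other edgeR fits called none of these genes.

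Dhcr7, the reductase of the last step to cholesterol, was at 17.2, 20.7 and 18.2 CPM with FICZ and at 29.8, 27.8 and 24.5 CPM with tryptamine. Its log2 difference of -0.55 ± 0.119 (SE) had an adjusted p of 0.0786 in edgeR's test. Mvd, the decarboxylase of the mevalonate pathway, was at 9.57, 12.3 and 11.7 CPM against 16.2, 16.2 and 18.2 CPM (log2 -0.59, adjusted p 0.146). Sqle, squalene epoxidase, was at 239, 232 and 229 CPM against 290.2, 284 and 257 CPM (log2 -0.25, adjusted p 0.228). In each of these 3 genes the groups were separate.

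The sterol sensing and uptake genes lay on both sides of 0. Insig1, which holds the sterol sensor in the endoplasmic reticulum, had a log2 difference of -0.42 (95% interval -0.65 to -0.19, adjusted p 0.272), and Srebf2, the transcription factor that drives the pathway, one of -0.21 (interval -0.34 to -0.08, adjusted p 0.456). Both had separate groups. The list as a whole had 6 of 12 tested members above 0 and a median of -0.00. Fatty acid synthesis, 14 genes tested, had 0 genes that passed, a median of -0.09, and 4 members with separate groups, all lower with FICZ (5.52% over all genes tested). Scd2, a fatty acid desaturase, was the nearest to the threshold, at 2289, 2234 and 2226 CPM against 2493, 2549 and 2503 CPM (log2 -0.16, adjusted p 0.305).

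**Figure D3:**
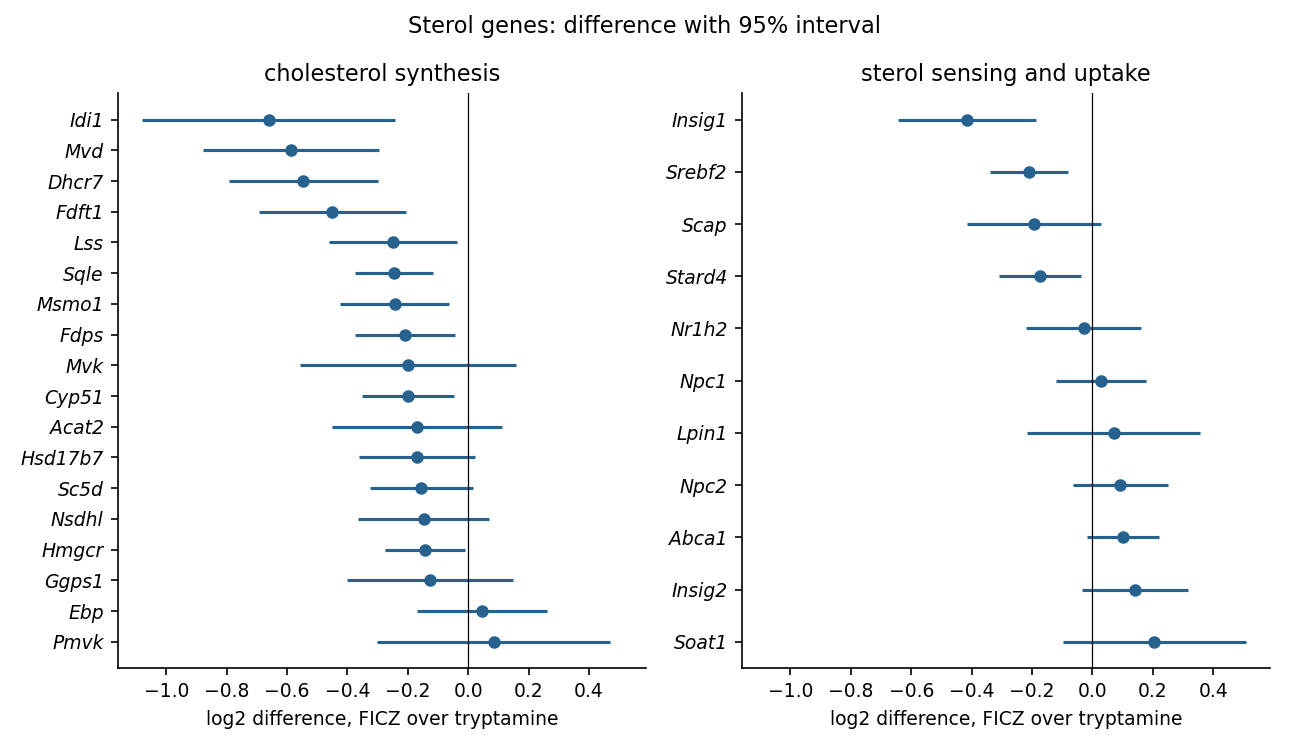
Log2 difference of FICZ over tryptamine with its 95% interval (horizontal axis) for each tested gene of cholesterol synthesis (left, 18 genes) and of sterol sensing and uptake (right, 11 of the 12 genes tested). On the left 16 points lie below 0; on the right Insig1, Srebf2 and Stard4 lie below 0 with intervals that do not reach it.

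Of the enzymes that make or break down tryptamine and related amines, few were detected above the filter. Of 19 listed genes of tryptophan and monoamine metabolism 5 passed the filter on low counts, and none differed between the treatments in edgeR's test or had an unadjusted p under 0.05. Maoa, monoamine oxidase A, was at 73.4, 74.6 and 88.5 CPM with FICZ and at 86.0, 79.3 and 88.3 CPM with tryptamine. The groups overlapped, and the 95% interval of the log2 difference was -0.28 to 0.07. Maob, monoamine oxidase B, had 3 counts in the FICZ libraries together and 0 in the tryptamine libraries, too few to test.

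The control libraries give the place of these genes between the resting level and the FICZ level. For all 16 genes higher with FICZ, the mean over the control libraries was lowest, that of tryptamine lay between, and that of FICZ was highest, on a scale set over all 9 libraries. No test is given for this order, and FICZ lay above tryptamine by the choice of the 16 genes. The share of all genes tested with this order, or with libraries separate from control as counted below, was not computed. For Gsta4 (43.9 against 44.2 CPM) and Gbp2 (0.912 against 0.940 CPM) the means of control and tryptamine were nearly equal. With control replicate 3 left out, 15 of the 16 kept the order, and Ppl did not, with 66.0 CPM in control against 65.2 CPM with tryptamine. All FICZ libraries lay above all control libraries in each of the 16, and all tryptamine libraries lay above all control libraries in 10 of them, or in 11, with Aldh3a1 added, when control replicate 3 was left out. Cyp1a1 had a mean of 61.2 ± 4.31 CPM in control, 721 ± 43.4 CPM with tryptamine and 1031 ± 45.6 CPM with FICZ (SD, n = 3), so the treated groups lay much closer to each other than to the control. Xdh ran from 19.8 ± 7.20 through 43.0 ± 3.12 to 88.8 ± 7.20 CPM and Adh7 from 62.7 ± 4.80 through 100.9 ± 3.49 to 143.7 ± 2.49 CPM (SD, n = 3).

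A further 6 genes were higher with FICZ while their tryptamine and control libraries overlapped: Aldh3a1, Slc2a6, Gbp2, Gsta4, Ppl and Por. Gbp2 was at 0.903, 0.849 and 0.984 CPM in the control libraries, and its mean with tryptamine was 0.940 CPM. Slc2a6 was at 0.764, 0.495 and 0.179 CPM in control, below or among its tryptamine libraries. Aldh3a1 had control values of 67.3, 59.0 and 91.8 CPM, of which replicate 3, the library that stands apart, was the highest. Angpt1 had 104.4, 104.7 and 79.0 CPM in control, a range that holds the tryptamine level, while all FICZ libraries lay below it. Mvd, Dhcr7, Sqle and Insig1 were ordered otherwise, with mean levels lowest with FICZ, intermediate in control and highest with tryptamine. For Sqle the control libraries held 234, 237 and 248 CPM, within 9-library scaling. Its FICZ libraries held 229 to 239 CPM and its tryptamine libraries 257 to 290.3 CPM. Srebf2 was at 255, 276 and 180 CPM in control replicates 1, 2 and 3, with means of 249 CPM with FICZ and 288 CPM with tryptamine. Scd2 was at 2276, 2379 and 1796 CPM in control, with means of 2249 and 2515 CPM.

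**Figure D4:**
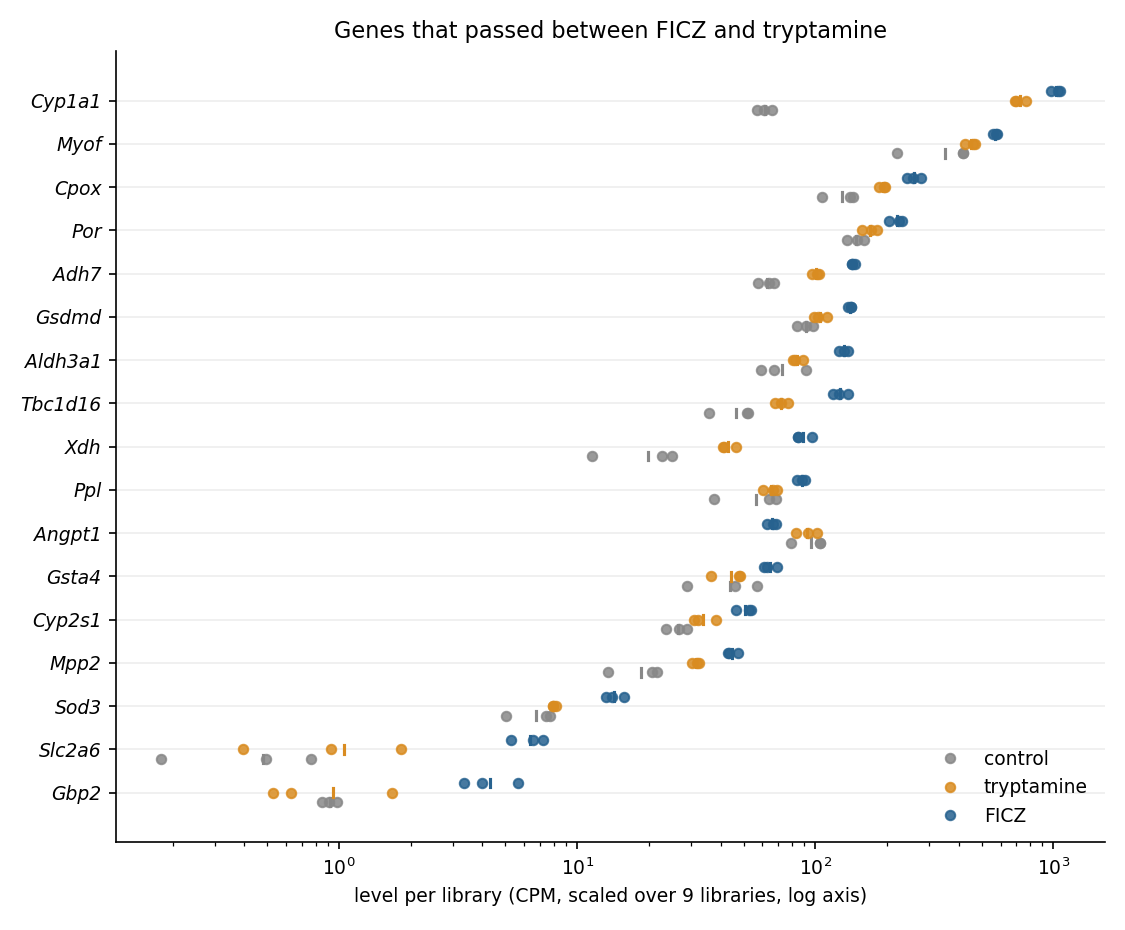
Level of the 17 genes that passed in each library (horizontal log axis, CPM scaled over 9 libraries), with points for control, tryptamine and FICZ libraries and a short bar at each group's mean. The FICZ points lie to the right of the tryptamine points in 16 genes and to the left in Angpt1, and the control mean lies furthest left in 16 genes.

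Below the threshold, the lower direction also held Rn18s, the ribosomal RNA gene, at 260.4, 321 and 204 CPM with FICZ and at 692, 352 and 319 CPM with tryptamine (log2 -0.79, adjusted p 0.117). Its groups overlapped, tryptamine replicate 1 was the highest of the 6 libraries, and control replicate 2 held 1909.9 CPM on the 9-library scale. Pknox2, a homeobox gene, was at 3.14, 3.13 and 2.67 CPM with FICZ and at 5.80, 5.55 and 6.34 CPM with tryptamine (log2 -0.98, adjusted p 0.118). Of the remaining genes named by rule, Fgfbp1, Cnn3 and Wls were lower, and Prkca, Tnxb, Spast, Gm340, Dstn and Skap2 higher, with adjusted p-values from 0.112 to 0.25.

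The authors' deposited table for this pair lists 131078 transcripts with a test and 104 with an adjusted p under 0.05, of which 84 were higher with FICZ and 20 lower. Of those transcripts 103 have a gene ID and belong to 25 genes in the authors' deposited table, which include all 17 named above, and 1 has none. The 8 genes found there alone were Dhcr7, Nqo1, Rn18s and Tapbpl, and, chosen here after their values were seen, Fdft1, Prkag3, Ptprz1 and Spice1. For the transcript of Cyp1a1 used here the authors' deposited table gives a log2 difference of 0.52 with an adjusted p of 2.25e-11, and for Xdh one of 1.05 with 3.31e-23.

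Markers of cell identity were measured to set the label beside the data. Alb and Afp, the albumin and fetal albumin of hepatic cells, were present at 217.6 ± 7.69 and 120.2 ± 2.55 CPM with FICZ and at 229.4 ± 18.7 and 126.3 ± 5.88 CPM with tryptamine (SD, n = 3). Of 24 hepatocyte genes 9 were tested and 8 had 0 counts, among them Ttr, Apoa1 and Hnf4a. The summed level of the list was 577 to 602 CPM with FICZ and 567 to 616 CPM with tryptamine. Fibroblast and stellate markers summed to 1676 to 1803 CPM with FICZ and 1669 to 1822 CPM with tryptamine, with Col1a1 at 1285 and 1263 CPM. Blood and endothelial markers summed to 67.1 to 68.6 and 69.7 to 71.5 CPM. The 3 tested of these 12 were Csf1r, Lyz2 and Cd68. Their means were 50.7, 13.2 and 3.78 CPM with FICZ and 54.0, 12.7 and 3.98 CPM with tryptamine. Another 5 had 0 counts, Cd3e and Cdh5 among them. Bile duct markers summed to 1096 to 1147 CPM with FICZ and 1063 to 1148 CPM with tryptamine. The keratin gene Krt7 was at 901.9 ± 30.8 and 895.5 ± 50.2 CPM (SD, n = 3). Krt19, another keratin gene of the list, was at means of only 1.47 and 1.31 CPM. Of the 8 members 5 were tested and 2 had 0 counts. No gene of the 4 marker lists passed in edgeR's test or in DESeq2's Wald test, while 1 hepatocyte gene and 2 fibroblast genes, of 9 and 7 tested, had an unadjusted p under 0.05 (5.73% over all genes), and their part in the results was not tested.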

How the data were processed

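RNA sequencing libraries of mouse hepatoma cells were compared, 3 with FICZ against 3 with tryptamine. Per the file headers, the deposited table holds read counts for each of 189660 transcripts, as whole numbers without normalization, with transcript lengths. The same deposited table holds the authors' p-values, raw and adjusted, and the authors' log2 fold changes of FICZ over tryptamine. Per the submitters' processing notes DESeq was used, with no version. No aligner, counting rule, build or annotation is given in the sources used here. All 9 count columns repeated in a further table were identical.

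Transcripts without a single gene ID (27781, 4.37 to 4.47% of the counts summed over all transcripts) were left out. That sum counts reads repeatedly, so the share of reads left out is not known. The transcript with the highest mean count stood for each gene, since sums over transcripts came to 5.70 to 5.73 times that total and so count reads repeatedly. The 6 libraries were fitted in edgeR 4.0.16 under R 4.3.3 (filterByExpr, TMM scaling, group as the only term, quasi-likelihood test, Benjamini-Hochberg over 11784 genes, threshold 0.05). CPM values use the effective library size, SE is the log2 difference divided by the square root of F, and intervals are 95%. Levels with control come from scaling over 9 libraries and were not tested. The steps were tested on simulated data. DESeq2 1.42.0 was an alternative.

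Named genes are all that passed, the next 10 by p-value in each direction, the 3 members of each of 24 lists with the smallest p, and 10 genes always named. Alb, Afp, Ttr, Apoa1, Hnf4a, Col1a1, Cd3e, Cdh5, Tek, Fdft1, Prkag3, Ptprz1, Spice1, Stard4, Slc7a5, Fmo2 and Ugt1a6a lie outside this rule and were picked with their values in view. The members and lists were chosen with earlier results of these data known. Promoter windows come from RefSeq (GRCm38.p6), in which both strands were searched. Some genes that the rule names are not reported here.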

Additional observations from a re-analysis of the deposited data

How the results depend on the processing

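Of the 16 genes higher and 1 lower with FICZ, the same 17 passed with DESeq2 size factors, without composition scaling, with a minimum of 10 counts in all libraries of 1 group and with a robust spread estimate, which gave 16 and 1 each. So did 2 alternatives chosen after seeing the data, transcripts of several loci assigned to genes and rRNA genes left out. The Wald test of DESeq2 gave 21 higher and 6 lower genes, all 17 among them. Without a filter on low counts edgeR called 25 higher and 13 lower. The fit of all 9 libraries called 0 higher and 0 lower, and that of 8 libraries, with control replicate 3 left out, 16 and 2. Sums over transcripts gave 6 and 0. Leaving out 1 library gave 6 to 19 higher and 0 to 7 lower. With the replicate number as a block, 28 were higher and 16 lower, all 17 among them. With that block 964 genes had an unadjusted p under 0.05 in edgeR's test, against 675 without it. Deviations of same-numbered libraries correlated at 0.0651, 0.0562 and 0.130, and those of differently numbered libraries at -0.147 to 0.0959. FICZ replicates 2 and 3 correlated best with the tryptamine library of their own number, and FICZ replicate 1 with tryptamine replicate 2, at 0.0959. Whether the numbers mark a pairing was not tested, and the main fit has group as its only term. The log2 difference changed sign only for genes near 0 or with few counts when 1 library was left out. Cyp1a2, with 9 to 32 counts per library, ran from -0.29 to 0.69, Arnt from -0.029 to 0.12 and Krt7 from -0.034 to 0.042. The cause of these changes was not tested. Genes with few counts limit the depth: Slc2a6 and Gbp2 rest on 45 and 38 counts over the tryptamine libraries. The order of control, tryptamine and FICZ without control replicate 3, kept in 15 of 16 genes, was an alternative chosen after seeing the data.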

Other observations

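The lists of the cell cycle, immediate early genes, p53 targets, the circadian clock, the endoplasmic reticulum stress response and hypoxia held no gene that passed in edgeR's test or in DESeq2's Wald test. Of 25 tested cell cycle genes, log2 differences lay between -0.14 and 0.10 and 0 had an unadjusted p under 0.05. Of 17 immediate early genes, Egr1, a growth-induced transcription factor, was at 24.9, 23.7 and 22.8 CPM with FICZ and at 20.8, 21.2 and 14.9 CPM with tryptamine (adjusted p 0.73). Its groups did not overlap, and neither did those of 3 other genes of the list in the same direction and 1 in the opposite direction. Over all genes tested these shares were 5.79% higher and 5.52% lower. Of the 17 genes, 8 lay above 0 and 9 below, with a median log2 difference of -0.01. Of 16 p53 target genes, Ccng1, cyclin G1, was at 251, 243 and 259 CPM with FICZ and at 213, 208 and 242 CPM with tryptamine (adjusted p 0.655), and Sesn1, a stress sestrin, lay the other way at 32.4, 34.4 and 33.8 against 39.0, 39.2 and 40.1 CPM (adjusted p 0.73). Of 17 circadian clock genes, 11 lay below 0 with a median log2 difference of -0.07, among them Cry1, a clock repressor, at 21.3, 21.1 and 24.3 CPM with FICZ and 27.1, 25.1 and 26.2 CPM with tryptamine (adjusted p 0.846).

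Among 19 tested genes of the endoplasmic reticulum stress and amino acid response, 12 lay below 0, with a median log2 difference of -0.03. All FICZ libraries lay below all tryptamine libraries in 4 of them, against 5.52% over all genes tested. The summed level of that list was 4559 to 4625 CPM with FICZ and 4756 to 4828 CPM with tryptamine, without overlap. Abundant members weigh most in this sum, such as Hsp90b1 at a mean of 1217 and 1296 CPM, whose own groups overlapped. Asns, asparagine synthetase, was at 185, 187 and 183 CPM with FICZ and at 194, 194 and 222 CPM with tryptamine (adjusted p 0.858). The 16 tested hypoxia genes held Ankrd37 at 1.53, 0.858 and 1.41 CPM with FICZ against 0.909, 0.159 and 0.396 CPM with tryptamine (adjusted p 0.744), a low level at which the groups overlapped.

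In some of the genes significant in the authors' deposited table alone, 1 library was far higher than the others, and no fit without it was made for these transcripts. A short transcript of Prkag3, a muscle subunit of the AMP-activated kinase, has 0 counts in each FICZ library and 2, 2 and 35 counts in tryptamine replicates 1, 2 and 3, with an adjusted p of 2.77e-04 in the authors' deposited table. A transcript of Spice1, a centriole protein, has 12, 17 and 22 counts against 27, 30 and 87 counts, with an adjusted p of 0.00806 in the authors' deposited table. In both the highest value is tryptamine replicate 3, and in both the other tryptamine libraries also lie above all FICZ libraries. For Rn18s the authors' deposited table gives an adjusted p of 7.50e-51, while edgeR's quasi-likelihood test of the same counts gives 0.117.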
